A study of Rattus with 4 samples.

Results

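The circadian clock genes were followed here between RNA recovered with an antibody to NONO and input RNA from rat cardiac cells in culture. The set holds 10 genes chosen by name, namely Clock, Arntl, Per1, Per2, Per3, Cry1, Cry2, Nr1d1, Nr1d2 and Dbp, and all 10 were among the 13731 genes listed in the deposited tables. The tables place Arntl and Dbp on chromosome 1, Per1 and Nr1d1 on chromosome 10, and Clock, Per2, Per3, Cry1, Cry2 and Nr1d2 on chromosomes 14, 9, 5, 7, 3 and 15. In RNA immunoprecipitation sequencing (RIP-seq) a protein is pulled down with an antibody and the RNA that comes with it is sequenced beside the starting material. The 2 NONO IP libraries are labelled with an anti-NONO antibody and, in the cell type field, with NONO siRNA. The 2 Input libraries are labelled with no antibody and with an empty vector. Precipitation and knockdown therefore cannot be told apart by these labels, and no library with a control antibody was analysed here. The cells are described as a rat cardiac fibroblast line in the growth protocol and as H9C2, a line of myoblasts derived from rat embryonic heart, in the titles. No time of day or synchronisation of the cultures is given in the labels used here.

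The clock is a loop of transcription factors. CLOCK and BMAL1, the protein encoded by Arntl, switch on the Per, Cry, Nr1d1, Nr1d2 and Dbp genes, the PER and CRY proteins then hold CLOCK and BMAL1 back, and the REV-ERB receptors encoded by Nr1d1 and Nr1d2 repress Arntl. NONO is a nuclear RNA- and DNA-binding protein known in mouse fibroblasts as a partner of PER proteins. That contact is between proteins, whereas the libraries here measure RNA.

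Depth was low. Gene counts summed to 279410 and 264059 in the NONO IP libraries and to 249548 and 238776 in the Inputs, where 3 reads equal 9.26 to 14.5 CPM (read counts scaled to a common library total, here with TMM, which centres the bulk of genes). Listed fibroblast markers held 20372 and 19339 reads in the NONO IP and 19445 and 18630 in the Inputs. Most of these lay on the collagen gene Col1a1 (12011 and 11190 in the NONO IP, 10575 and 10072 in the Inputs). Single markers moved both ways, with Pdgfra at 31 and 31 in the NONO IP and 9 and 11 in the Inputs. Postn had 11 and 11 in the NONO IP and 73 and 60 in the Inputs, and Dcn had 0 and 0 against 2 and 2. Smooth muscle markers held 360 and 349 reads in the NONO IP and 531 and 519 in the Inputs. Cardiomyocyte markers held 80 and 75 reads in the NONO IP and 41 and 64 in the Inputs, most of them on Tnnt2 (64 and 59 in the NONO IP, 16 and 39 in the Inputs), while Myh7 had 2 and 2 in the NONO IP and 10 and 10 in the Inputs. The part of these differences in the results was not tested. Of 5 skeletal myoblast markers only Des was listed, with 2 and 4 reads in the NONO IP and 8 and 7 in the Inputs. Nono itself had 3 and 3 reads in the NONO IP and 21 and 9 in the Inputs.

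Both activators of the loop, Clock and Arntl, were higher in the NONO IP, and no clock gene was called lower. Per1, the clock gene with the most reads, and Cry2 did not pass the test. The remaining 6, Per2, Per3, Cry1, Nr1d1, Nr1d2 and Dbp, had too few reads for the count filter, which left 2920 genes. Of the 4 clock genes tested, 2 were called higher and 0 lower at an adjusted p under 0.05, against 56.7% of all genes tested called in either direction, 29.8% higher and 26.9% lower. No gene with fewer than 23 reads over the 4 libraries was tested. Clock, Arntl and Cry2 had fewer Input reads than that, and all 3 had the higher CPM in the NONO IP. Of tested genes with 7 or 8 Input reads, as Clock and Arntl had, 88.4% were called higher. A fold change here compares RNA recovered with the antibody with input RNA and is not a measure of expression alone. Nor can bulk RNA tell fewer cells carrying a transcript from less of it per cell. The 10 genes together had 113 and 121 reads in the NONO IP and 71 and 56 in the Inputs, so every value below rests on small counts.

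**Figure D1:**
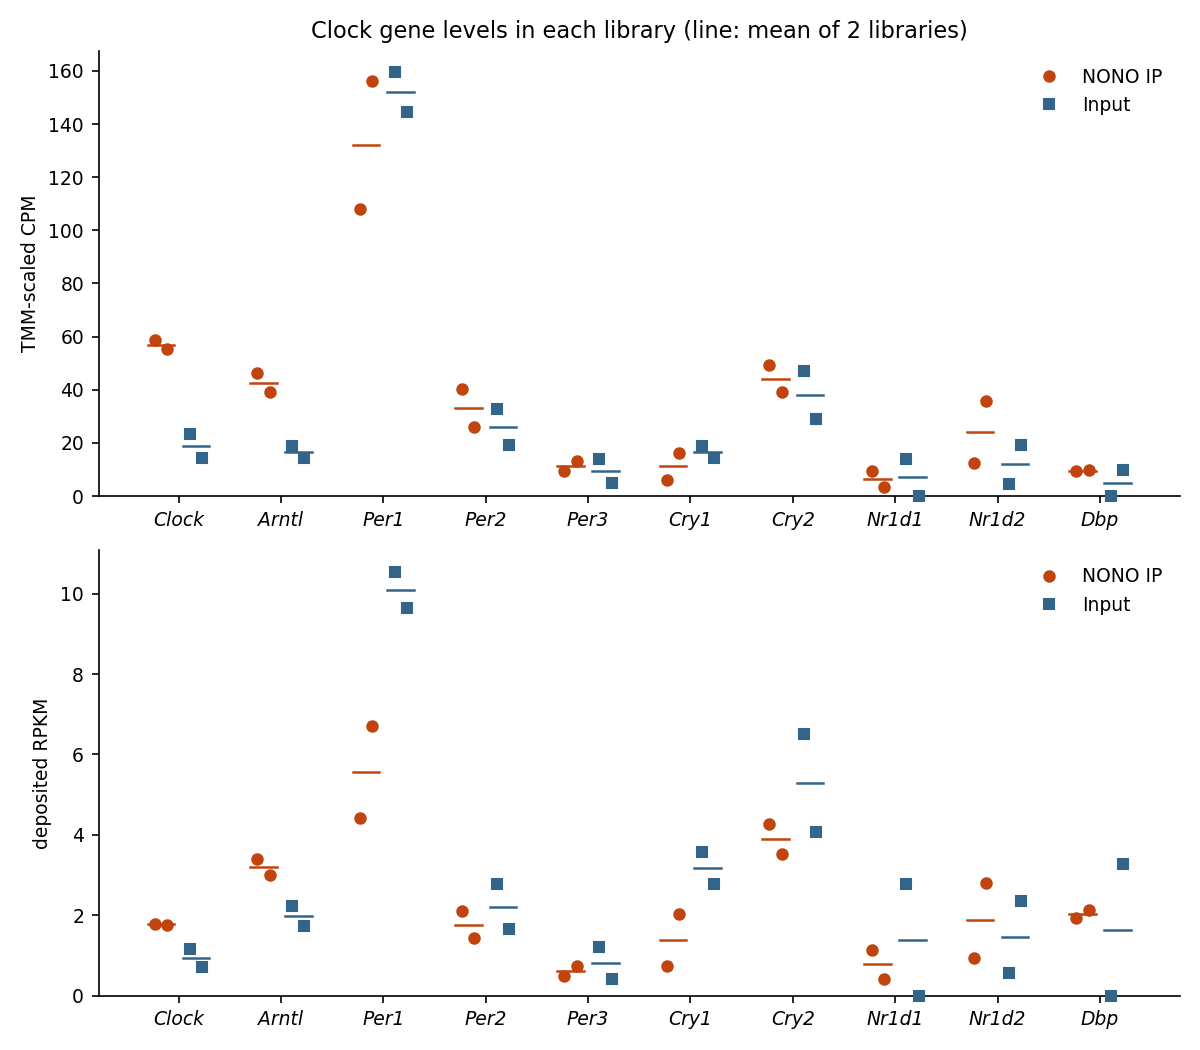
Level of each clock gene in each library as TMM-scaled CPM (top) and as deposited RPKM, reads per kilobase scaled to a library total (bottom); points are single libraries and lines are means of 2. Clock and Arntl lie higher in both NONO IP libraries than in both Inputs on both scales, while Per1 overlaps between the groups in CPM and lies lower in the NONO IP in RPKM.

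Clock encodes the partner of BMAL1 in the activating pair. It had 19 and 17 reads in the NONO IP libraries, against 5 and 3 in the Inputs, or 56.99 ± 2.32 CPM in the NONO IP and 18.97 ± 6.37 CPM in the Inputs (SD, n = 2 each). The NONO IP libraries did not overlap with the Inputs. By edgeR the log2 fold change of Clock was 1.56, with an SE of 0.47 and an adjusted p = 0.00974. This placed Clock at the 83.6th percentile of the log2 fold changes of all genes tested.

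Arntl encodes BMAL1, which binds DNA as a dimer with CLOCK. It had 15 and 12 reads in the NONO IP libraries, against 4 and 3 in the Inputs, with no overlap. Its level was 42.7 ± 5.10 CPM in the NONO IP and 16.6 ± 3.05 CPM in the Inputs (SD, n = 2 each). Its fold change by edgeR was 1.34 in log2 units (SE 0.50, adjusted p = 0.0305), at the 79.5th percentile.

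Both calls rest in part on how genes entered the test. A tested gene had at least 23 reads over the 4 libraries, whereas Clock had 8 Input reads and Arntl 7, so both entered through their NONO IP reads. Of the 95 tested genes with 7 or 8 Input reads, 84 were called higher (88.4%), at a median log2 fold change of 1.78, above the value of either gene. With no filter, the 773 listed genes with 7 or 8 Input reads had a median of −0.19, against 1.77 (SE 0.52, adjusted p = 0.0134) for Clock and 1.55 (SE 0.57, adjusted p = 0.0644) for Arntl. That fit called 1 of the 10 clock genes, Clock, higher and 0 lower, where 13.3% of all 13731 genes were called, 8.59% higher and 4.73% lower.

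The calls also depended on the test and on the use of an offset for gene length. The DESeq2 Wald test gave adjusted p-values of 0.157 for Clock and 0.283 for Arntl, and an offset for gene length gave 0.0854 and 0.0753, at log2 fold changes of 1.04 and 1.15. The median of all genes tested also moved, from 0.02 in the main fit to −0.11 with the offset. Clock lies at the 88.8th percentile of gene length among the genes tested and Arntl at the 48.2nd. Over all alternatives in which they were fitted, adjusted p ran between 0.00142 and 0.257 for Clock and between 0.00547 and 0.297 for Arntl, with a positive log2 fold change in each. On the RPKM scale, fitted with limma, neither was called, at log2 differences of 0.53 (adjusted p = 0.227) and 0.50 (adjusted p = 0.251) with a pseudocount of 1. The share of all tested genes called was 30% by the Wald test, 49.1% with the length offset, and 24.0% and 19.7% on the RPKM scale with pseudocounts of 1 and 0.1. Without Input replicate 2, adjusted p was 0.107 for Clock and 0.244 for Arntl, and without NONO IP replicate 1 it was 0.0864 and 0.297. Without Input replicate 1 and without NONO IP replicate 2 only the call of Arntl ended, at 0.163 and 0.167.

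**Figure D2:**
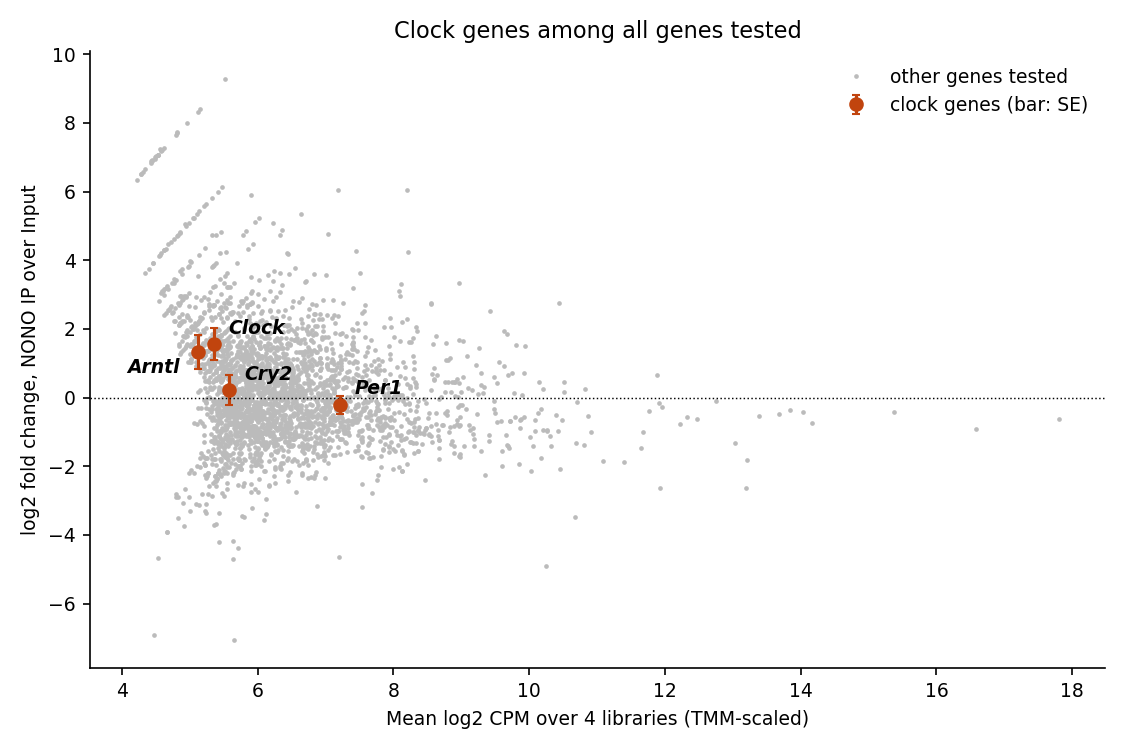
Log2 fold change of NONO IP over Input against mean log2 CPM over the 4 libraries for the 2920 genes tested, with the 4 tested clock genes and their SE. Clock and Arntl sit among low-count genes at 1.56 and 1.34, and Per1 lies near 0 at a higher level.

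The PER proteins are the repressors of the loop to which NONO is known to bind. Per1 had 35 and 48 reads in the NONO IP libraries, against 34 and 30 in the Inputs, or 132 ± 34.1 CPM in the NONO IP and 152 ± 10.6 CPM in the Inputs (SD, n = 2 each). The groups overlapped in CPM. The edgeR estimate was −0.21 in log2 units, with an SE of 0.26 (adjusted p = 0.516), at the 42.9th percentile. The ratio of NONO IP to Input reads per TMM-scaled library was 0.864, with an exact conditional 95% interval of 0.616 to 1.22 that covers counting error only. A change of Per1 mRNA larger than this range was not detected on this scale.

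On the RPKM scale the groups no longer overlapped for Per1. Its deposited RPKM was 4.43 and 6.70 in the NONO IP, against 10.55 and 9.65 in the Inputs, with both NONO IP libraries lower. The corresponding limma test gave −0.78 on the log2(RPKM + 1) scale (adjusted p = 0.110), a scale on which the median of all genes tested was −0.61. With library totals in place of TMM, Per1 changed sign to 0.22 (adjusted p = 0.490), where the median of all genes was 0.45. None of these passed the threshold.

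Per2 had 13 and 8 reads in the NONO IP and 7 and 4 in the Inputs. Per3, whose product is a weaker repressor than PER1 and PER2 in mouse, had 3 and 4 reads in the NONO IP and 3 and 1 in the Inputs. Both overlapped between the groups. The read ratio of NONO IP to Input was 1.27 (interval 0.586 to 2.92) for Per2 and 1.17 (0.296 to 5.43) for Per3, wide enough to hold a change in either direction. The 3 Per genes together had 51 and 60 reads in the NONO IP and 44 and 35 in the Inputs, a ratio of 0.936 (0.695 to 1.26) with TMM scaling, 1.26 with library totals and 0.591 with the totals behind the RPKM.

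The cryptochromes Cry1 and Cry2 encode the main repressors of CLOCK and BMAL1 activity. Cry2 had 16 and 12 reads in the NONO IP, against 10 and 6 in the Inputs, and its CPM overlapped between the groups. For Cry2 edgeR gave a log2 value of 0.22 with an SE of 0.43 (adjusted p = 0.695), and like Clock and Arntl it had fewer than 23 Input reads. Cry1 had 2 and 5 reads in the NONO IP and 4 and 3 in the Inputs, a ratio of 0.666 (0.199 to 2.23). On the RPKM scale Cry1 was lower in both NONO IP libraries, at 0.73 and 2.02 against 3.58 and 2.79 in the Inputs, without passing the test (adjusted p = 0.182 at a pseudocount of 1). The reads of Cry2 relative to Cry1 did not differ detectably between the groups, with a ratio of ratios of 1.73 (exact interval 0.432 to 7.01).

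The REV-ERB receptors and Dbp were at the edge of detection. Nr1d1, which encodes REV-ERBα, had 3 and 1 reads in the NONO IP and 3 and 0 in the Inputs. Nr1d2, which encodes REV-ERBβ, had 4 and 11 reads in the NONO IP and 1 and 4 in the Inputs. Dbp, a PAR bZIP factor that carries clock output to other genes, had 3 and 3 reads in the NONO IP and 0 and 2 in the Inputs. The groups overlapped for all of them, and the read ratios were 0.888 (0.150 to 6.06) for Nr1d1, 2.0 (0.690 to 7.03) for Nr1d2 and 2.0 (0.357 to 20.2) for Dbp. In RefSeq's GRCr8 assembly Nr1d1 overlaps Thra, a thyroid hormone receptor gene with 6 and 2 reads in the NONO IP and 2 and 8 in the Inputs, and whether the counting used strand is not stated in the labels.

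**Figure D3:**
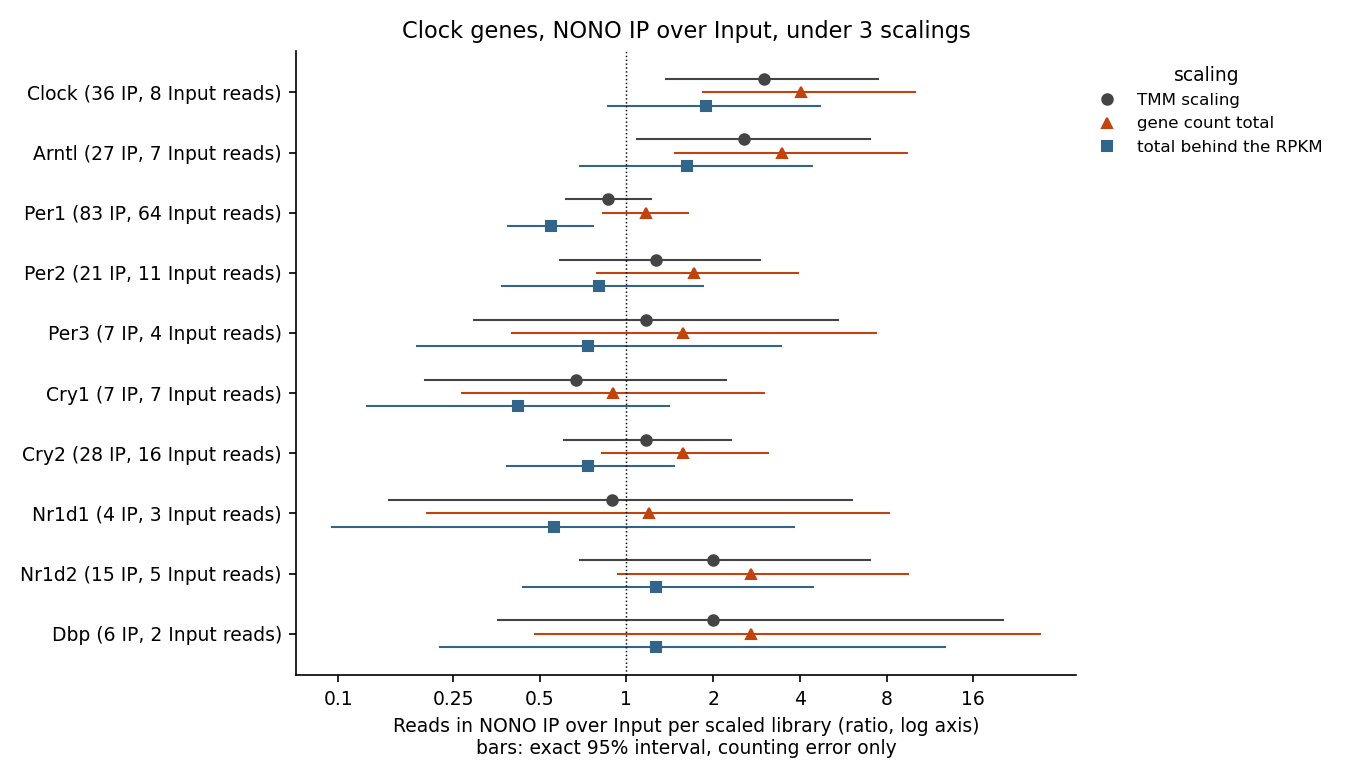
Reads of each clock gene in the NONO IP over the Inputs, per library scaled by TMM, by the gene count total or by the total behind the RPKM, on a log axis; bars are exact conditional 95% intervals for counting error. Intervals of Clock and Arntl lie above 1 under the first 2 scalings and reach below 1 under the third, and that of Per1 lies below 1 under the third alone.

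Across the set, 2 of the 10 genes had both NONO IP libraries above both Inputs in CPM and 0 had them below, beside 45.2% of all listed genes whose groups did not overlap in one direction or the other. In RPKM, 2 lay above and 2, Per1 and Cry1, below, beside 49.2% of all listed genes in either direction. Lying below was the more common state on that scale, with 4709 of the listed genes below and 2042 above. In CPM these numbers were 3121 below and 3085 above. The median log2 fold change of all 10 genes without a count filter was 0.49, and that of all 13731 genes was 0.30. The summed reads of the set gave a ratio of 1.23 (0.984 to 1.54) with TMM scaling, 1.66 (1.33 to 2.07) with library totals and 0.775 (0.622 to 0.970) with the totals behind the RPKM. The direction of the set as a whole was therefore fixed by the scaling.

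A ratio between genes of the same library does not depend on scaling. Per1 made up 31.0% and 39.7% of the clock reads in the NONO IP libraries, against 47.9% and 53.6% in the Inputs. Clock had 0.543 and 0.354 reads per Per1 read in the NONO IP and 0.147 and 0.10 in the Inputs. Arntl had 0.429 and 0.25 in the NONO IP and 0.118 and 0.10 in the Inputs. The ratio of ratios was 3.45 for Clock (exact 95% interval 1.45 to 9.20) and 2.96 for Arntl (1.16 to 8.57), for counting error only, and Per1 was taken as the common partner after its counts were seen. For the other 7 genes the interval held 1, with ratios between 0.772 for Cry1 and 2.30 for Nr1d2 and Dbp. How many of all genes differ from Per1 in this way was not computed, so these ratios do not set Clock and Arntl apart from other genes.

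**Figure D4:**
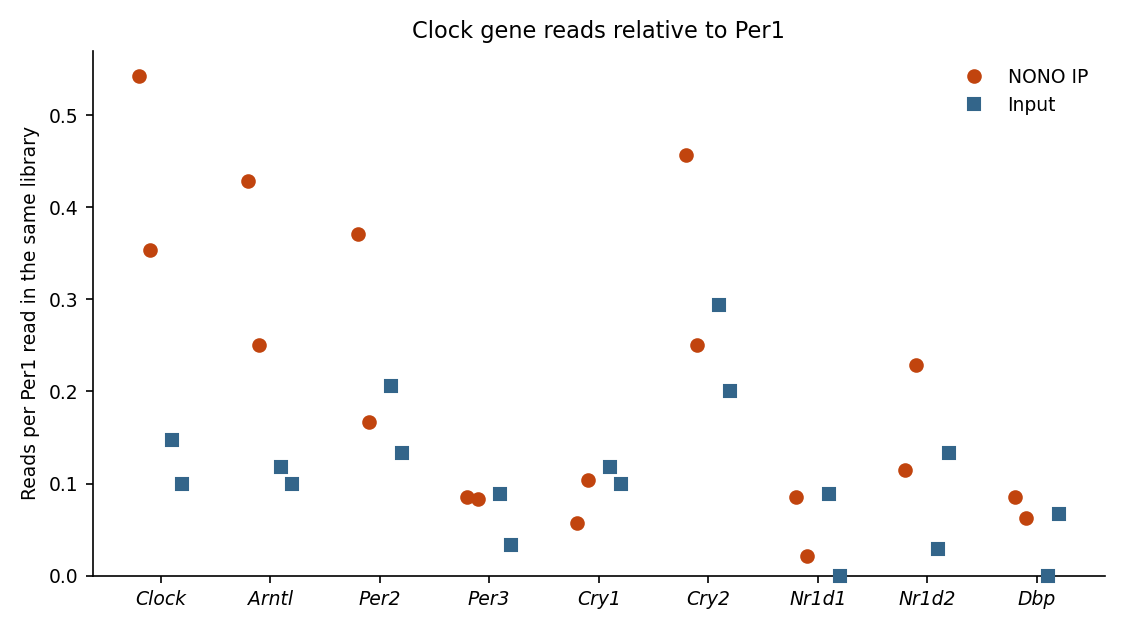
Reads of each other clock gene per Per1 read in the same library, a quantity free of scaling; points are single libraries. For Clock and Arntl both NONO IP libraries lie above both Inputs, while the groups overlap for the other 7. The share of all genes without overlap relative to Per1 was not computed, and in CPM it was 45.2% of listed genes in either direction.

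Levels between genes are compared per length, in RPKM. In the NONO IP libraries Per1 was highest at 5.57 ± 1.61 RPKM, then Cry2 at 3.89 ± 0.523, Arntl at 3.21 ± 0.283 and Dbp at 2.03 ± 0.141 (SD, n = 2), with no overlap between neighbours in this order. In the Inputs Per1 was highest at 10.1 ± 0.636 RPKM, then Cry2 at 5.29 ± 1.74, Cry1 at 3.19 ± 0.559 and Per2 at 2.22 ± 0.799, again with no overlap between neighbours. Cry1 and Per2 were barely apart, at 2.79 RPKM in the lower Cry1 Input (3 reads) and 2.78 in the higher Per2 Input (7 reads). The place of Dbp in the NONO IP rested on 3 and 3 reads. The lower genes overlapped with their neighbours in both groups. Clock was low per length, at 1.78 ± 0.0212 RPKM in the NONO IP and 0.935 ± 0.304 in the Inputs.

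The genes whose reads over the 4 libraries lay nearest to Clock were B4galt6, Nr2c2 and Ranbp9, at Euclidean distances of 0.0688, 0.287 and 0.304 in log2 CPM. Those nearest to Arntl were Cpne2, Gpr161 and Gpatch2, at 0.0851, 0.0973 and 0.126. B4galt6 had 18 and 17 reads in the NONO IP and 5 and 3 in the Inputs, within 1 read of Clock in each library. With 2 groups of 2 libraries such likeness is one of level and fold only.

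Of 52 other genes of the clock machinery, listed by role, 49 were in the tables and 22 were tested. Of these, 7 were higher, 5 were lower and 10 did not pass, at a median log2 fold change of 0.19 against 0.02 over all genes tested. Those shares can be read against the 29.8% higher and 26.9% lower among all genes. Of the 22, 9 had fewer than 23 Input reads, and 8 of these had the higher CPM in the NONO IP. Without a count filter 10 of the 49 were called higher and 4 lower, beside 8.59% higher and 4.73% lower over all 13731 genes in that fit. These shares are of sets unlike in depth, since 22 of the 49 had reads enough for the filter, against 2920 of the 13731.

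**Figure D5:**
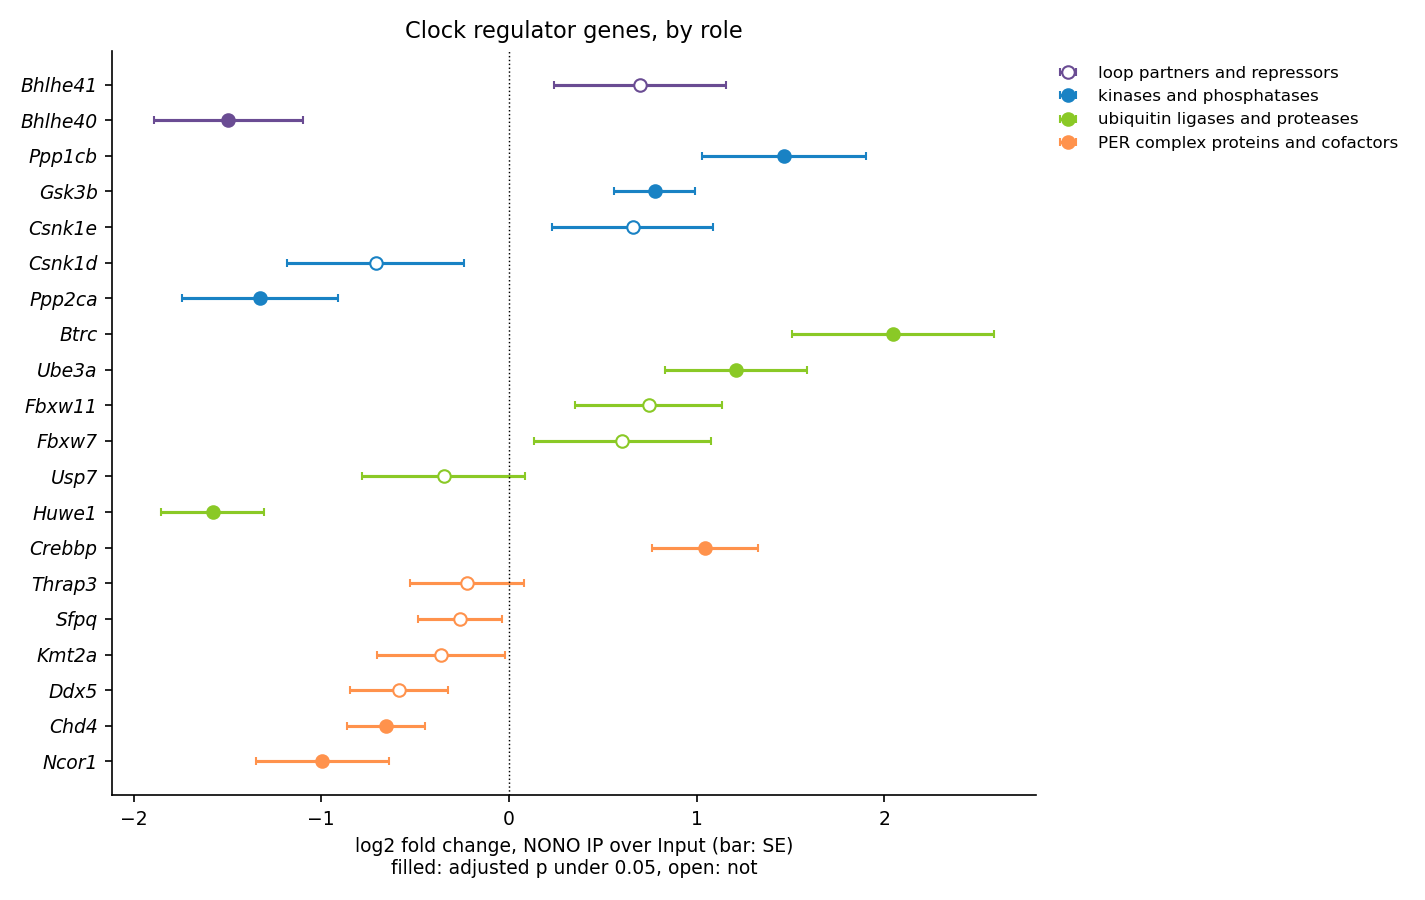
Log2 fold change of NONO IP over Input with its SE for 20 of the 22 clock regulator genes tested, grouped by role; filled points passed an adjusted p of 0.05. Btrc lies highest at 2.05, and Huwe1 and Bhlhe40 lie lowest.

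Genes that act on the stability of clock proteins included the largest rise among the tested genes of the list. Btrc encodes β-TrCP, the ubiquitin ligase subunit that recognises phosphorylated PER, and had 19 and 13 reads in the NONO IP against 3 and 2 in the Inputs (log2 fold change 2.05, SE 0.54, edgeR adjusted p = 0.00382). Ube3a, a ligase gene, had 27 and 29 reads in the NONO IP against 7 and 9 in the Inputs (1.21, SE 0.38, adjusted p = 0.0116). Both had fewer than 23 Input reads, so both entered the test through their NONO IP reads. With no filter, edgeR gave 2.26 for Btrc (adjusted p = 0.00553) and 1.43 for Ube3a (adjusted p = 0.00831). The DESeq2 Wald test called neither Btrc nor Ube3a (adjusted p = 0.103 and 0.148). Huwe1, a giant ligase gene, had 19 and 19 reads in the NONO IP against 40 and 36 in the Inputs and was lower (−1.58, SE 0.27, adjusted p = 0.000109). The call of Btrc ended without NONO IP replicate 1 (adjusted p = 0.136) and that of Ube3a without Input replicate 1 (adjusted p = 0.0987).

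Kinase and phosphatase genes were split. Gsk3b, a kinase of several clock proteins, had 94 and 71 reads in the NONO IP against 30 and 34 in the Inputs (0.78, SE 0.22, edgeR adjusted p = 0.00563). Of the phosphatase catalytic subunit genes, Ppp1cb had 21 and 21 reads in the NONO IP against 5 and 5 in the Inputs (1.47, SE 0.44, adjusted p = 0.00901). Ppp1cb had 10 Input reads, and without a filter its value was 1.68 (adjusted p = 0.00963). Ppp2ca had 7 and 9 in the NONO IP against 13 and 14 in the Inputs (−1.33, SE 0.41, adjusted p = 0.0117). The 2 casein kinase 1 genes whose products phosphorylate PER did not pass, Csnk1e at 0.66 (SE 0.43) and Csnk1d at −0.71 (SE 0.47). Without Input replicate 1 the calls of Gsk3b and Ppp1cb ended (adjusted p = 0.0987 and 0.0533), and that of Ppp2ca ended without Input replicate 2 (0.0885) and without NONO IP replicate 1 (0.131). Ppp2ca did not pass with library totals (adjusted p = 0.0745) or without a filter (0.120).

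Among cofactor genes, calls were made in both directions. Ncor1 encodes the nuclear receptor corepressor that acts with HDAC3 where REV-ERBα silences Arntl, and it had 12 and 18 reads in the NONO IP against 21 and 19 in the Inputs (−0.99, SE 0.36, edgeR adjusted p = 0.0242). Crebbp, which encodes a histone acetyltransferase recruited by CLOCK and BMAL1, had 57 and 61 reads in the NONO IP against 14 and 24 in the Inputs (1.04, SE 0.28, adjusted p = 0.00450). Chd4, a chromatin remodeller gene, had 47 and 52 reads in the NONO IP against 54 and 50 in the Inputs (−0.66, SE 0.21, adjusted p = 0.0124). Without Input replicate 1 the calls of Crebbp (adjusted p = 0.138), Chd4 (0.0516) and Ncor1 (0.0533) ended, and without NONO IP replicate 1 those of Chd4 (0.119) and Ncor1 (0.237). Ncor1 and Chd4 did not pass with library totals (adjusted p = 0.186 and 0.375) or without a filter (0.199 and 0.254).

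Of the factors that share DNA sites with the loop, Bhlhe40, whose product DEC1 represses CLOCK and BMAL1 targets, had 11 and 8 reads in the NONO IP against 21 and 15 in the Inputs (−1.49, SE 0.40, edgeR adjusted p = 0.00397). The DESeq2 Wald test did not call Bhlhe40 (adjusted p = 0.0778). Its paralog Bhlhe41 had 14 and 13 in the NONO IP against 7 and 4 in the Inputs and did not pass (0.70, SE 0.46, adjusted p = 0.218). Reads of Bhlhe41 relative to Bhlhe40 were 4.57-fold higher in the NONO IP (exact interval 1.75 to 12.6, counting error only). This pair was picked after its values were seen, from several paralog pairs tried, and the interval is not adjusted for that. Sfpq, which encodes a partner of NONO in the DBHS family, had 52 and 47 reads in the NONO IP against 41 and 38 in the Inputs (−0.26, SE 0.22, adjusted p = 0.328), and Ddx5 (−0.58), Thrap3 (−0.22) and Kmt2a (−0.36) did not pass either. With the length offset Sfpq (−0.61, adjusted p = 0.0288) and Kmt2a (−1.21, adjusted p = 0.00959) were called lower, and on the RPKM scale Ddx5 was (−1.17, adjusted p = 0.0253 with a pseudocount of 1).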

How the data were processed

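The deposited count and RPKM tables were used, each with 13731 genes and 4 libraries. The deposited counts hold raw whole-number reads of each gene. The deposited RPKM values were scaled by the authors to gene length and to a library total that is not the gene count sum. HISAT2, HOMER and mRatBN7.2 are named in the submitters' processing notes; the counting program, its strand setting and the handling of multiply mapped reads are not stated in the labels or headers. Groups and replicate numbers came from the titles.

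NONO IP was tested against Input with edgeR 4.0.16 (quasi-likelihood, TMM, filterByExpr, R 4.3.3), with Benjamini-Hochberg adjustment over all genes tested and a threshold of 0.05; SE is the log2 fold change over the root of F. The script was tested on simulated data. CPM use TMM-scaled totals. Relative gene length and RPKM totals came from counts divided by RPKM over 461 genes with at least 30 reads in every library. Exact conditional 95% intervals take the pooled reads of a group as independent, so they cover counting error only and leave out the spread between replicates. Copies of the same molecule were not merged here, so that error may be understated. Alternatives used DESeq2 1.42.0 and limma 3.58.1.

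The clock genes, the list of other clock machinery genes and the naming rule were chosen with earlier results of these data known. All 10 clock genes are named, with up to 14 called genes of the other list and its 4 uncalled genes with the most reads, and the 3 nearest genes to each called clock gene. Nono, Csnk1d, Csnk1e, Bhlhe41 and Thra were named outside this rule after their values were seen. Chi-square per degree of freedom between replicates was 1.42 in the NONO IP and 1.12 in the Inputs, where 1 is sampling noise. The labels do not say that replicates came from separate cultures, so that the p-values speak of the spread of these libraries, which may be technical. Of the called genes of the other list, 2 are not reported here. No sequences are shown. The clock genes matched RefSeq's GRCr8 gene table by symbol, except Arntl, which matched as a synonym of Bmal1.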

Additional observations from a re-analysis of the deposited data

How the results depend on the processing

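The 2 calls among the clock genes stood with DESeq2 size factors, with library totals and with the replicate block (2 of 4 tested, each higher). They went to 0 with the DESeq2 Wald test, on both RPKM scales, and with the length offset alone or with the replicate block, and to 1 without a count filter. Leaving out 1 library at a time gave between 0 and 1 calls. With at least 50 counts in 2 libraries no clock gene was tested. The cause was not tested. The other machinery genes, 12 called of 22, moved to 2 with the DESeq2 Wald test and to 4 of 4 tested with at least 50 counts. In these fits 30% and 83.5% of all genes tested were called. The replicate block gave 12. With library totals 10 were higher and 2 lower of 22 tested. With RPKM values 39 were tested, of which 2 were higher and 8 lower under both pseudocounts. All genes swung likewise, with 40.9% higher and 16% lower with library totals and 5.19% higher and 18.8% lower on the RPKM scale (pseudocount 1).

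No call changed sign, but uncalled values did. Per1 turned to 0.22 with library totals, 0.0083 without a filter and 0.098 without NONO IP replicate 1 (−0.44 to 0.098 over the libraries left out). Per2 turned to −0.20 and −0.29 on the RPKM scales (pseudocounts 1 and 0.1), Cry2 to −0.34 and −0.40, and Nr1d1 to −0.16 with a pseudocount of 1. Without Input replicate 2, Per2 gave −0.045 and Cry2 −0.14 (ranges over the libraries left out −0.045 to 0.70 and −0.14 to 0.54). With library totals Sfpq gave 0.17, Thrap3 0.21 and Kmt2a 0.068, and Thrap3 gave 0.028 without NONO IP replicate 1 (−0.44 to 0.028). Of the single-gene values under alternatives, 189 kept direction and side of the threshold, 70 lost a call, 7 gained one and 14 changed sign. Huwe1 kept its call wherever it was fitted, the Wald test included. With the length offset Gsk3b, Crebbp, Ube3a and Ppp2ca lost their calls (adjusted p = 0.169, 0.120, 0.512 and 0.0799), while Sfpq and Kmt2a gained one, each lower (0.0288 and 0.00959).

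Same-numbered libraries deviated together at a correlation of 0.036 across genes, and the labels do not say what a number stands for. Depth limits most of the clock genes, since all but Per1 had 2 to 16 Input reads.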
